A study of Mus musculus with 30 samples.

Results

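Cholesterol and fatty acid synthesis was followed through 7 genes, taken by symbol from the count tables: Hmgcs1, Sqle, Srebf1, Srebf2, Fasn, Scd1 and Acaca, out of 48709 genes in each table. Each symbol matched 1 gene identifier. Exon counts came from total RNA of 5 adult C57BL/6 tissues: spleen, muscle (quadriceps femoris), liver, kidney and brain. The WT group carried both copies of Ctcf, and the other group was heterozygous for a loss of Ctcf (Ctcf+/-), with 3 libraries per genotype and tissue and 30 libraries in all. The design names 3 mice of each genotype as the source of all tissues, but the labels do not tie libraries of different tissues to a mouse. They give no allele, sex, time of collection or feeding state. Ctcf encodes a zinc-finger DNA-binding protein that takes part in chromatin looping, and the series asks how its dosage relates to intron retention, which exon counts do not measure.

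Animal cells build cholesterol from acetyl-CoA through the mevalonate pathway and build fatty acids from the same precursor through malonyl-CoA. Both branches are switched on by the SREBP transcription factors, which are held in the endoplasmic reticulum membrane while sterols are plentiful and are cut and released to the nucleus when sterols fall. Srebf2 encodes SREBP-2, best known for the cholesterol branch, and Srebf1 encodes the SREBP-1 proteins, of which SREBP-1c drives fatty acid synthesis in liver after feeding and insulin. Hmgcs1 makes HMG-CoA, an early step of the mevalonate pathway, and Sqle oxidises squalene further down. Acaca makes malonyl-CoA, Fasn assembles the saturated fatty acid chain, and Scd1 puts the first double bond into it.

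Promoter sequence is shown for Hmgcs1, Srebf2 and Fasn, because they are an enzyme and the regulator of the cholesterol branch and the main enzyme of the fatty acid branch, whose levels are compared below. RefSeq windows (GRCm38.p6, the 250 bases before an annotated start) matched 5 of the 7 members, in 7 windows, 3 of them for Srebf1. Sqle and Scd1 are named only. The windows are chr13:119690101-119690350 on the plus strand for Hmgcs1, chr15:82147019-82147268 on the plus strand for Srebf2 and chr11:120824548-120824797 on the minus strand for Fasn, all read 5′ to 3′. Capitals mark matches on either strand to the sterol regulatory element TCACNCCAC, bound by SREBP proteins, to its first 8 letters TCACNCCA, and to CCAAT, bound by NF-Y.
Hmgcs1: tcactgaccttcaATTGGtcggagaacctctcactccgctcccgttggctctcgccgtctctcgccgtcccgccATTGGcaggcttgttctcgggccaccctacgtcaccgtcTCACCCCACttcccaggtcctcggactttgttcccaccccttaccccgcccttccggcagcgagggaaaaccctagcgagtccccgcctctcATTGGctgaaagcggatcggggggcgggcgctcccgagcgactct
Srebf2: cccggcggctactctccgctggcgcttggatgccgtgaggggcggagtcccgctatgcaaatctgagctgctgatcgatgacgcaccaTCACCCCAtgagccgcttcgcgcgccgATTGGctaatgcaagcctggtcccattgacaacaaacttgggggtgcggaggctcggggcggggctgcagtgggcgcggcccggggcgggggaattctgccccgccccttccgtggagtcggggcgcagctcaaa
Fasn: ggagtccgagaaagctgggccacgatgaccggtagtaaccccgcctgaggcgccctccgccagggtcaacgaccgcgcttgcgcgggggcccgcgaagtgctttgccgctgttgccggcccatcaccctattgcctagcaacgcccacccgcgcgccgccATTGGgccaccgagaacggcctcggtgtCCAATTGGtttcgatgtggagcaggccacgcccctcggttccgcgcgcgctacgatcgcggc

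The Hmgcs1 window held the full sterol element, with its first letter 137 bases before the start, and 3 CCAAT matches. The Srebf2 window held the first 8 letters of the element, with the first letter 162 bases before the start, and 1 CCAAT match. No window of Fasn, Srebf1 or Acaca held either form, while Fasn held 3 CCAAT matches, 2 of which overlap in CCAATTGG. Among all 32851 windows of the same length, 1.05% held the full element, 3.67% its first 8 letters and 33.8% a CCAAT match. Of 15 cholesterol synthesis enzymes with a window, 1 held the full element, Hmgcs1 itself, and 2 held the first 8 letters. Of 20 fatty acid synthesis and desaturation genes with a window, 0 held the full element and 2 held the first 8 letters. The shorter form was added after the sequences had been seen. No member window held the E-box CACGTG, which 6.02% of all windows held. The single Acaca window lies inside the gene.

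Library totals ran from 49.8 M to 131.6 M counts. Levels are CPM, the count scaled to a common library total that was adjusted by TMM, edgeR's scaling between libraries. Where nothing was counted, the level could still reach 0.0228 to 0.0602 CPM of the unadjusted total, for counting error only. Every member lay above this in every library. Ctcf itself was lower in the heterozygous libraries of all 5 tissues without overlap, with log2 fold changes of -0.57 in muscle to -0.70 in kidney. It passed an adjusted p of 0.05 in brain alone (adjusted p = 0.0259, edgeR). Each tissue held its own markers: the summed level was 5583 to 6798 CPM for 6 neuron genes in brain, 22714 to 28444 for 6 kidney epithelium genes in kidney, 145889 to 201737 for 6 hepatocyte genes in liver, 146106 to 179221 for 6 muscle fibre genes in muscle and 3211 to 4474 for 5 B cell genes in spleen. Traces of other tissues followed genotype: the hepatocyte sum in spleen was 33.1 to 42.5 CPM in WT and 0.0900 to 0.344 in heterozygous libraries, and the kidney epithelium sum there was 0.0841 to 0.379 in WT and 12.04 to 24.4 in heterozygous libraries. Their part in the member values was not tested.

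Levels across tissues are given in WT libraries as CPM per kb of exon, scaled over all 30 libraries. Liver was the highest tissue for 6 of the 7 members, and Srebf2 was the exception. Scd1 had the widest range: 2637 ± 1291 in liver (SD, n = 3), 193 ± 47.2 in kidney, 59.6 ± 11.4 in spleen, 43.5 ± 1.82 in brain and 16.02 ± 5.12 in muscle. Liver Scd1 was thus 165 times the muscle level. The fatty acid chain builder Fasn stood at 147 ± 76.9 in liver, 22.2 ± 0.985 in brain, 8.89 ± 2.98 in kidney, 6.07 ± 0.594 in spleen and 3.38 ± 0.81 in muscle. For Acaca, which supplies Fasn, the values were 10.1 ± 2.78 in liver, 3.11 ± 0.097 in brain, 1.32 ± 0.294 in kidney, 1.14 ± 0.247 in spleen and 1.10 ± 0.083 in muscle. Brain was second for both enzymes, while kidney was second for Scd1.

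In the cholesterol branch, Hmgcs1 was at 278 ± 118 CPM per kb in liver, 99.8 ± 19.0 in kidney, 58.3 ± 9.04 in brain, 15.4 ± 1.15 in muscle and 10.5 ± 2.41 in spleen. Sqle followed with 38.0 ± 15.996 in liver, 9.87 ± 0.782 in brain, 9.65 ± 1.60 in kidney, 2.45 ± 0.488 in spleen and 0.72 ± 0.093 in muscle. Both enzymes were thus lowest in muscle or spleen. Outside liver the 2 regulators differed in range. Srebf1 was at 85.4 ± 10.5 in liver and between 7.02 ± 0.507 (kidney) and 9.52 ± 0.512 (spleen) in the other 4 tissues. Srebf2 was at 33.5 ± 1.52 in brain, 31.1 ± 3.31 in spleen, 26.1 ± 3.73 in liver, 14.6 ± 1.64 in kidney and 4.42 ± 0.544 in muscle. Its highest tissue was brain, while that of Hmgcs1 and Sqle was liver.

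**Figure D1:**
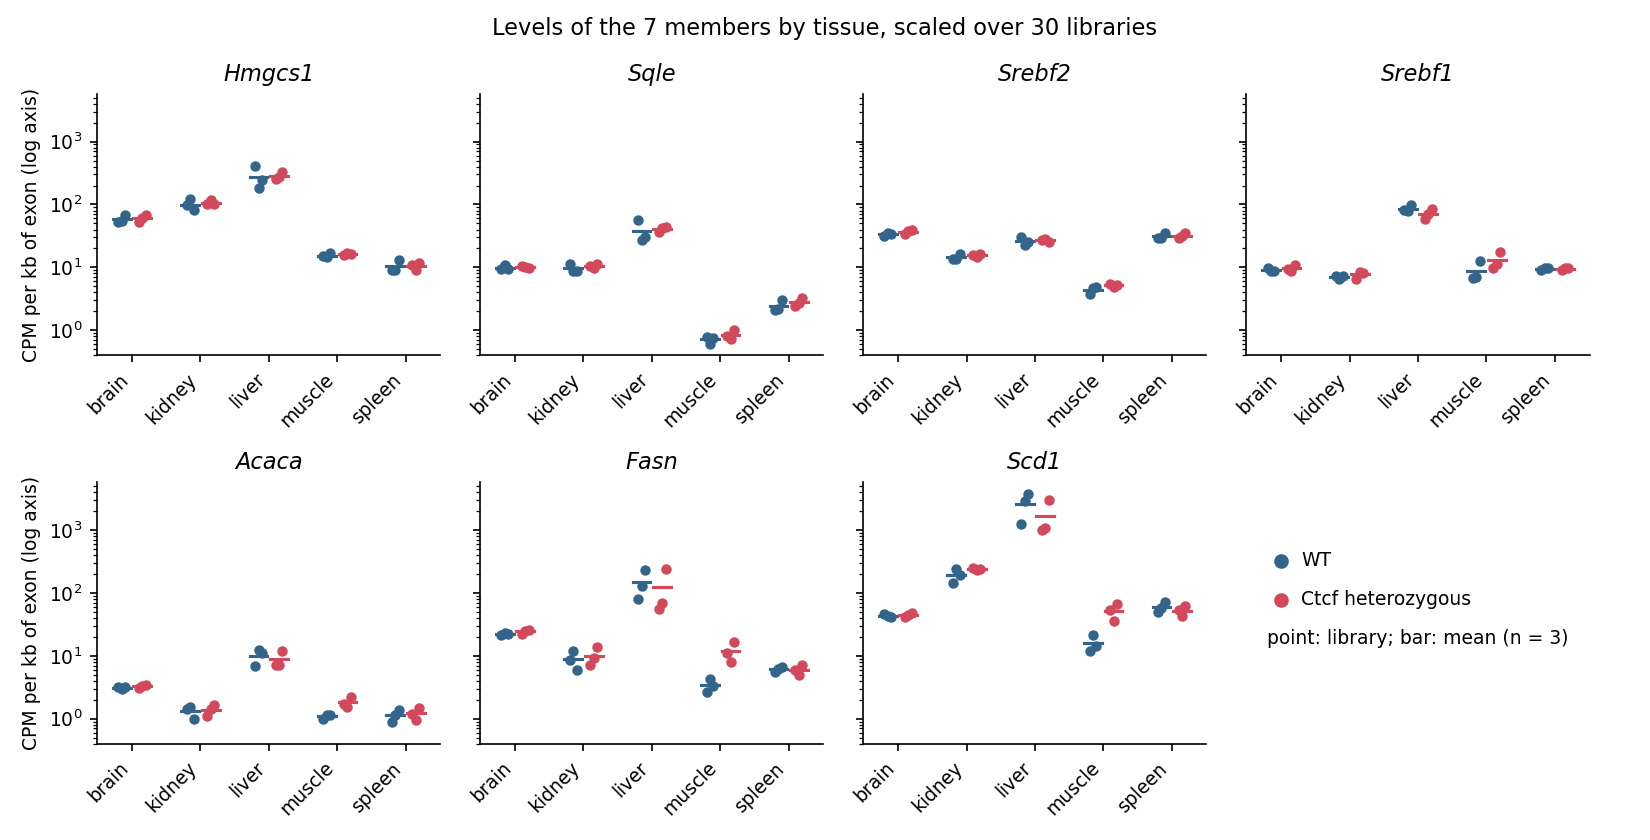
Level of each member in every library, in CPM per kb of exon on a log axis, by tissue, with WT in blue and heterozygous libraries in red and a bar at each mean of 3. Liver is highest for 6 members, and the red points lie above the blue ones for Fasn, Scd1 and Acaca in muscle.

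Of the 70 contrasts (7 members in 10 pairs of tissues), 55 passed an adjusted p of 0.05 in the WT libraries by edgeR. The background is high: of all genes tested, 71.4% were called for brain against kidney, 73.2% for brain against liver, 72.3% for brain against muscle and 79.8% for brain against spleen. It was 54.1% for kidney against liver, 64.4% for kidney against muscle, 75.5% for kidney against spleen, 64.2% for liver against muscle, 72.9% for liver against spleen and 75.2% for muscle against spleen. The members' count is read against these shares and does not stand apart from them. The 15 contrasts that missed the threshold show which neighbours could not be separated. For Srebf1 they were all 6 pairs of tissues other than liver. Kidney, spleen and muscle were not separated for Acaca. For Fasn, spleen was separated from neither kidney (adjusted p = 0.127) nor muscle (adjusted p = 0.0803), although kidney was separated from muscle. Brain and kidney were not separated for Sqle (adjusted p = 0.759), nor spleen and brain for Scd1 (adjusted p = 0.351). Srebf2 in spleen was separated neither from brain (adjusted p = 0.242) nor from liver (adjusted p = 0.151). Some of these contrasts passed in other fits: kidney was below brain, muscle and spleen for Srebf1 with RLE scaling (adjusted p = 0.0180, 0.0308 and 0.0451). Kidney against muscle for Srebf1 also passed without the WT muscle library 1 (0.0160) or 2 (0.0264) or the WT liver library 3 (0.0473). Without the WT muscle library 3, Srebf1 in kidney was separated from brain (0.00831) and spleen (0.0124). For Fasn, muscle was separated from spleen without the WT kidney library 2 (0.0329), the WT liver library 1 (0.0422) or the WT liver library 3 (0.0247), and kidney from spleen without the last of these (0.0386).

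The heterozygous libraries gave 53 calls among the 70, and 51 contrasts were called in both genotypes with the same sign. The order of all 5 tissues was the same in both genotypes for Hmgcs1 and Srebf2. For Fasn and Acaca, muscle was the lowest tissue in WT and the third, above kidney and spleen, in heterozygous libraries. With total counts in place of TMM scaling, tissue levels shifted against each other by up to 1.20 on the log2 scale. Liver stayed first for the same 6 members, but liver was then no longer separated from kidney for Hmgcs1 (adjusted p = 0.148) or from brain for Acaca (adjusted p = 0.0604), nor kidney from brain for Hmgcs1 (adjusted p = 0.0657). The Hmgcs1 difference between muscle and spleen turned with total counts, from a log2 fold change of 0.72 for muscle over spleen to -0.64 (adjusted p = 0.0508). The Hmgcs1 difference between kidney and brain was lost without the WT brain library 1 (adjusted p = 0.0857), the WT brain library 2 (0.0757) or the WT kidney library 2 (0.0623). That between muscle and spleen with TMM scaling was lost without the WT library 2 of kidney (adjusted p = 0.0515), 3 of muscle (0.0628), 1 of spleen (0.074) or 2 of spleen (0.0909). The Srebf2 difference between brain and liver was lost without the WT liver library 2 (adjusted p = 0.0736).

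By the rule for likeness, the genes closest to Hmgcs1 over the 15 WT libraries were Rnf13 (r = 0.987), Tprkb (0.981), Cbs (0.981), Sec22a (0.979) and Slc46a1 (0.978), among 14737 named genes with a mean of at least 1 CPM. Those closest to Fasn were Slc22a15 (r = 0.965), Il1rap (0.963), H2-Q1 (0.961), Cldn14 (0.960) and Apoe (0.958). These values describe tissue patterns, since the 15 libraries fall into 5 tissues, and have no test.

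Within liver the enzymes of the 2 branches ranked the 6 libraries differently. Values from here on are CPM scaled within a tissue. Hmgcs1 was at 829, 363 and 543 CPM in WT libraries 1 to 3 and at 513, 558 and 678 in heterozygous libraries 1 to 3. Sqle was at 195, 93.3 and 117 CPM in the same WT libraries and at 128, 147 and 159 in the heterozygous ones. Both enzymes of the cholesterol branch were highest in WT 1 and lowest in WT 2. Their log2 CPM gave r = 0.96 (exact permutation p = 0.0083, adjusted over 21 pairs of members 0.0875) and rho = 0.94 (exact p = 0.0167, adjusted 0.0875), with n = 6. Without WT 1 and WT 2, the farthest from the median, r was 0.78.

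The fatty acid branch had another order. Fasn was at 551, 882 and 1739 CPM in the WT libraries and at 383, 492 and 1725 in the heterozygous ones. Scd1 was at 3718, 8755 and 12523.5 CPM in WT and at 3023, 3373 and 9439 in heterozygous libraries, and Acaca at 74.5, 129.5 and 131.5 in WT and at 76.1, 78.4 and 133.1 in heterozygous libraries. WT 2, WT 3 and heterozygous 3 were thus high and the other 3 low for all 3 enzymes. Fasn and Scd1 ranked the 6 libraries identically. Because Scd1 and Acaca each fell into separate sets of 3 libraries, no r is given for their pairs, and a relation within each set cannot be tested.

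Between Fasn and the cholesterol enzymes, neither r passed 0.05. Hmgcs1 against Fasn gave r = 0.0014 (exact permutation p = 0.999, adjusted 0.999) and rho = 0.09 (exact p = 0.919, adjusted 0.919), and r was 0.63 without WT 1 and WT 2. Sqle against Fasn gave r = -0.19 (exact permutation p = 0.685, adjusted 0.846) and rho = -0.20 (exact p = 0.714, adjusted 0.882), and r was 0.02 without the same libraries. Srebf1 against Fasn gave r = 0.86 (exact permutation p = 0.0153, adjusted 0.107) and rho = 0.94 (exact p = 0.0167, adjusted 0.0875), and r was 0.76 without heterozygous 1 and WT 3. Srebf2 against Hmgcs1 gave r = 0.81 (exact permutation p = 0.0639, adjusted 0.168) and rho = 0.60 (exact p = 0.242, adjusted 0.508), but this rests on WT 1 and WT 2, since r without them was -0.68. Of all 21 pairs, 6 had an exact p of r under 0.05 and 0 passed after Benjamini-Hochberg adjustment, and the smallest p that 6 libraries allow is 0.00139. The median r of the 21 pairs was 0.0014, against 0 over all pairs of 15584 genes. Taken as deviations from the genotype means, r for Hmgcs1 with Sqle was 0.97 and for Srebf1 with Fasn 0.89.

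**Figure D2:**
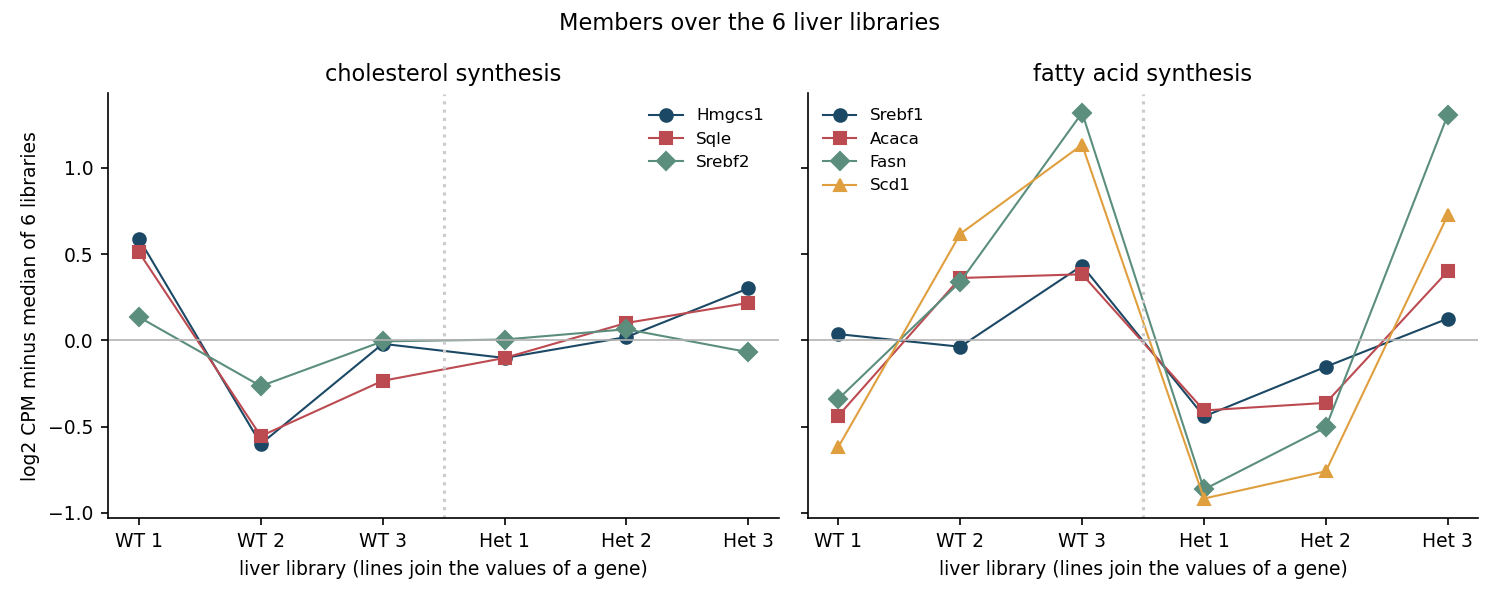
Log2 CPM of the members in each liver library, minus the median of the 6 libraries, for the cholesterol branch (left) and the fatty acid branch (right). Lines only join the values of a gene and the libraries have no order: Hmgcs1 and Sqle peak in WT 1 and dip in WT 2, while Fasn and Scd1 are high in WT 2, WT 3 and heterozygous 3.

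The other enzymes of each branch were set beside Hmgcs1 and Fasn in liver, as a description. Their r values used all 6 libraries and were not recomputed without WT 1 and WT 2, the farthest from the median for Hmgcs1. Of the 19 other cholesterol synthesis enzymes, 12 (63.2%) had r above 0.8 with Hmgcs1 and their median r was 0.82, where 2.53% of all genes exceeded 0.8 and the median of all genes was -0.012. With Fasn, 2 of the 20 cholesterol genes exceeded 0.8, while their median r of 0.39 lay above the all-gene median of 0.0097. Of the 21 other fatty acid synthesis and desaturation genes measured, 11 (52.4%) had r above 0.8 with Fasn and their median was 0.82, where 4.99% of all genes exceeded 0.8. With Hmgcs1, 0 of the 22 did, and their median r was -0.081. Examples chosen after their values were seen are Fdft1, which makes squalene (r = 0.96 with Hmgcs1), Mvk, the mevalonate kinase (0.94), Acly, which supplies acetyl-CoA from citrate (r = 0.98 with Fasn), and Thrsp, a lipogenic protein (0.96). Acly ran from 184 CPM in heterozygous 1 to 720 in heterozygous 3. Some listed genes ran otherwise: Sc5d and Pmvk of the cholesterol list had r of 0.87 and 0.83 with Fasn. In the fatty acid list, r with Fasn was -0.88 for Elovl5, -0.84 for Hsd17b12, -0.81 for Elovl3, -0.72 for Hacd3 and -0.36 for Fads2. Elovl5 had r of -0.32 with Hmgcs1. By the naming rule, the genes closest to Hmgcs1 over the liver libraries were Xrcc5 (r = 0.991), Pyurf (0.986), Hsd17b2 (0.977), Usb1 (0.977) and Rpa3 (0.974), and those closest to Fasn were Ttc39c (0.990), Cyb5b (0.988), Cyp2j6 (0.986), Arhgef37 (0.985) and Zkscan5 (0.984), each among 11437 genes. Of these genes, 14 exceeded 0.95 with Hmgcs1 and 52 with Fasn, and 1.36% of all gene pairs reached 0.9.

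The same libraries stood apart in genes of feeding and of the clock. WT 2, lowest in Hmgcs1 and Sqle, had the highest summed level of the 14 clock and clock output genes (514 CPM, against 199 to 366 in the other 5 liver libraries) and of the 12 fasting and feeding genes (8985 CPM, against 3722 to 6558). Dbp, a clock output factor, was at 52.3 CPM there and at 2.46 to 18.7 elsewhere, and Pck1, an enzyme of glucose synthesis, was at 2541 CPM there and at 535 to 1413 elsewhere. WT 1, highest in Hmgcs1 and Sqle, had the lowest clock sum and the lowest Igfbp1, a gene repressed by insulin, at 4.93 CPM against 21.7 to 148 elsewhere. Over the 14 clock genes the median r was -0.58 with Hmgcs1 and 0.46 with Fasn, and over the 12 fasting and feeding genes -0.62 and -0.30. The clock list did not move as one. Arntl and Npas2, activators of the clock, had r of 0.76 and 0.81 with Hmgcs1, while Clock, also an activator, had 0.31. The repressors Per1 and Per2 had -0.86 and -0.84 with Hmgcs1, while Cry1 and Cry2, also repressors, had 0.07 and -0.22. With Fasn, Cry1 had r of -0.99 and Cry2 had 0.85. These named genes were chosen after their values were seen, the labels give neither the hour of collection nor feeding, and the part of either in the member patterns was not tested.

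Markers of brain cells had positive r with Fasn in liver, but the neuron and oligodendrocyte sums stood out in WT 3 alone. These r values were not recomputed without that library. The median r with Fasn was 0.69 over 5 neuron genes, 0.64 over 5 astrocyte genes and 0.59 over 5 oligodendrocyte genes. With Hmgcs1 it was 0.046, -0.15 and -0.10. The median over all genes was 0.0097 with Fasn and -0.012 with Hmgcs1. With Srebf1 the 5 neuron genes had r of 0.65 to 0.82. The summed neuron level was 42.2 CPM in WT 3, 1 of the 3 libraries high in Fasn, and 12.5 to 16.9 in the other 5, and the oligodendrocyte sum was 50.3 CPM in WT 3 against 15.3 to 21.4. The astrocyte sum was 91.8 to 101 CPM in WT and 78.4 to 105 in heterozygous libraries. No gene of the 3 lists was at 0 in any of the 6 libraries, and the part of these traces in the member values was not tested.

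The members also differed in how much they varied. Within genotypes, the SD of log2 CPM in liver was 1.01 for Fasn and 0.90 for Scd1, larger than in 97.5% and 96.4% of genes, and 0.46, 0.45 and 0.40 for Acaca, Hmgcs1 and Sqle. It was 0.27 for Srebf1 and 0.15 for Srebf2, where the median gene had 0.24. In brain the SD was 0.073 to 0.198 over the 7 members, and in spleen Srebf1, at 0.065, varied less than all but 1.83% of the genes there. The pair of Hmgcs1 and Sqle had r of -0.47 and rho of -0.14 in brain, 0.0009 and -0.09 in kidney, 0.40 and 0.14 in muscle, and 0.69 and 0.66 in spleen, each over 6 libraries. The difference between tissues in this relation was not tested.

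Between genotypes, no member passed an adjusted p of 0.05 in any tissue by edgeR's quasi-likelihood test on 6 libraries. Few genes did: the share called among all genes tested was 0.242% in spleen, 0.0249% in muscle, 0.0211% in kidney, 0.0193% in liver and 0.0157% in brain. At an unadjusted p under 0.05 there were 3 members in muscle, all higher in heterozygous libraries, where 6.45% of all genes passed in either direction and 3.67% with the heterozygous group higher. There were 0 in brain, kidney, liver and spleen, where 2.96%, 6.44%, 4.56% and 3.52% of all genes passed. DESeq2 called 3 members in muscle, where it called 1.03% of all genes, and 0 elsewhere, and limma-voom called 0 in every tissue. Non-overlap of the groups is a looser mark: it held for 4 members in muscle, where 12.2% of all genes were separated in either direction and 5.91% with the heterozygous group higher. It held for 0 members in brain, kidney, liver and spleen, where 7.83%, 11.4%, 8.99% and 6.64% of all genes were separated.

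**Figure D3:**
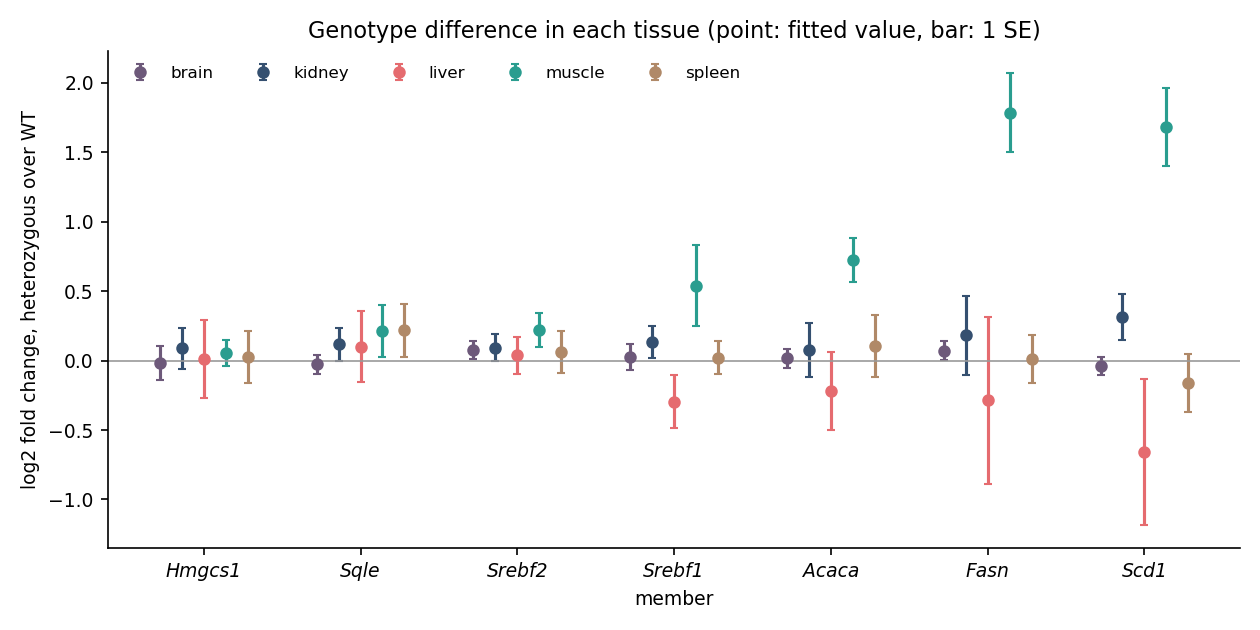
Fitted log2 fold change of each member, heterozygous over WT, in 5 tissues, with bars of 1 SE. In muscle Fasn is at 1.78 and Scd1 at 1.68, while the brain values lie between -0.04 and 0.08.

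In muscle the fatty acid enzymes were the members with the largest differences. Fasn was at 17.8, 29.1 and 22.5 CPM in WT libraries 1 to 3 and at 73.6, 53.3 and 112.6 in heterozygous libraries 1 to 3. Every heterozygous value was above every WT value, and the log2 fold change was 1.78 (SE 0.28, adjusted p = 0.228). Scd1 was at 35.9, 66.2 and 43.5 CPM in WT and at 160, 108 and 201 in heterozygous libraries, also without overlap (log2 fold change 1.68, SE 0.28, adjusted p = 0.229). For Acaca the values were 10.5, 12.2 and 12.4 CPM in WT and 18.3, 16.1 and 23.7 in heterozygous libraries, again without overlap (log2 fold change 0.73, SE 0.16, adjusted p = 0.332). A 2-sided exact permutation test gave p = 0.1 for each of the 3, which is the smallest p that 3 against 3 libraries allow.

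The regulators and the cholesterol branch differed less in muscle. Srebf2 was at 11.7, 14.5 and 15.2 CPM in WT and at 16.6, 15.2 and 16.5 in heterozygous libraries, without overlap by a narrow margin, 15.19 against 15.22 (log2 fold change 0.22, SE 0.12, adjusted p = 0.863). Srebf1 overlapped, with 23.9, 24.9 and 44.8 CPM in WT against 34.4, 39.6 and 62.1 (log2 fold change 0.54, SE 0.29). Hmgcs1 lay between 29.5 and 34.1 CPM in all 6 libraries (log2 fold change 0.05, SE 0.09) and Sqle between 2.14 and 3.46 (log2 fold change 0.21, SE 0.19). Fasn and Scd1 passed the threshold with a looser filter on low counts (adjusted p = 0.00561 and 0.00693), in a fit of all 30 libraries (0.0348 and 0.0224) and by DESeq2 (3.42e-08 and 1.64e-07), and Acaca passed by DESeq2 (adjusted p = 0.0103). The looser filter called 0.251% of all genes in muscle and the fit of 30 libraries 0.944%. Leaving out any 1 of the 6 libraries kept Fasn at 1.46 to 2.001 and Scd1 at 1.47 to 1.96 on the log2 scale, and 0 members were called in those fits.

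**Figure D4:**
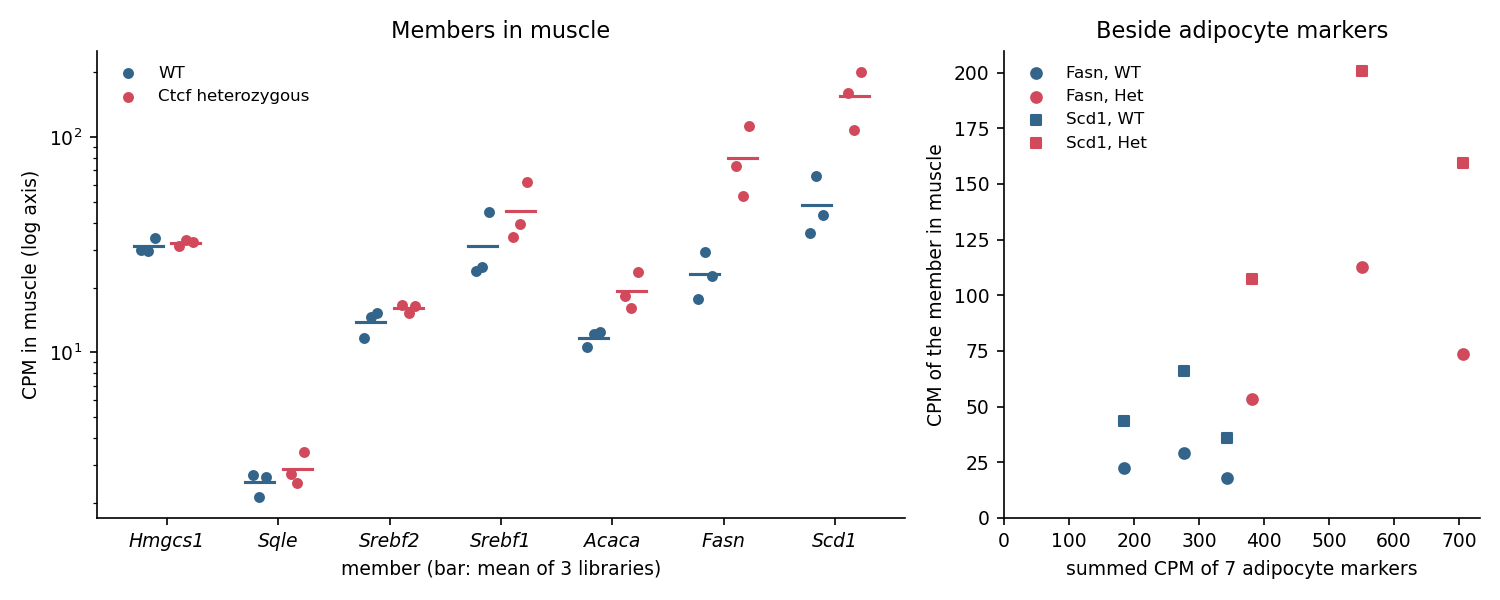
Left, CPM of each member in the 6 muscle libraries on a log axis, with bars at the means of 3. Right, Fasn (circles) and Scd1 (squares) against the summed CPM of 7 adipocyte markers in the same libraries, both of which are higher in the 3 heterozygous libraries (red) than in the 3 WT libraries (blue).

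Adipocyte genes differed in the same direction in muscle. All 7 markers (Adipoq, Plin1, Cfd, Lep, Retn, Cidec and Fabp4) had positive log2 fold changes in heterozygous libraries, with a median log2 fold change of 2.05 and a range of 0.50 to 2.35, and 5 of them did not overlap. By edgeR 0 of the 7 were called, and all 7 had an unadjusted p under 0.05. Over all genes in muscle, 5.91% did not overlap with the heterozygous group higher, and 3.67% were higher at an unadjusted p under 0.05. The summed level of the 7 markers was 344, 276 and 184 CPM in WT libraries 1 to 3 and 706, 382 and 551 in heterozygous libraries 1 to 3, and no marker was at 0 in any of the 6. Adipoq, a hormone made by fat cells and named after its values were seen, was at 7.90, 7.06 and 2.36 CPM in WT and at 36.5, 12.8 and 22.8 in heterozygous libraries. Fabp4 made up most of the marker sum. Scaled over all 30 libraries, its mean in muscle was 350 CPM in WT and 502 in heterozygous libraries, followed by Cfd at 53.0 and 273. Within the genotypes, WT 1 had the highest marker sum and the lowest Fasn of its group. Heterozygous 1 had the highest sum and heterozygous 3 the highest Fasn. Heterozygous 2 was the lowest of its group in the marker sum and in Fasn, Scd1 and Acaca. The part of adipocyte RNA in the member values was not tested, and in bulk tissue more cells of a type cannot be told apart from more RNA per cell. The 6 kidney epithelium markers ran the other way, at 10.05 to 73.0 CPM summed in WT and 0.0986 to 5.84 in heterozygous muscle, and the 6 muscle fibre markers overlapped. Macrophage markers were higher in heterozygous muscle too: of 5, 4 were tested and all 4 had positive log2 fold changes, with a median of 0.59. Of these 4, 3 had an unadjusted p under 0.05, 2 did not overlap and edgeR called 0. The macrophage sum was 6.47 to 9.99 CPM in WT and 9.64 to 14.5 in heterozygous muscle, with overlap, and its part in the member values was not tested.

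Around the members, 75 genes of 4 pathway lists, members included, were followed, and in muscle edgeR called 0 of the 70 tested. At an unadjusted p under 0.05 there were 15, of which 13 were higher in heterozygous libraries. Of all genes tested, 6.45% passed in either direction and 3.67% with the heterozygous group higher. DESeq2 called 6 of the pathway genes, among them Fasn, Scd1 and Acaca, and limma-voom called 0. In the list of fatty acid synthesis and desaturation, 18 of 23 genes were higher and 8 were separated, all 8 higher, with a median log2 fold change of 0.15 against -0.0075 for all genes. Of all genes in muscle, 48.4% were higher, and 5.91% were separated with the heterozygous group higher. The cholesterol list had 14 of 20 higher, 2 separated and a median of 0.07. The smallest p of the fatty acid list belonged to Thrsp, at 17.7, 19.7 and 20.8 CPM in WT and 34.2, 40.8 and 57.3 in heterozygous muscle (log2 fold change 1.19, SE 0.18, adjusted p = 0.228). In the other lists it belonged to Acat2, which makes acetoacetyl-CoA (0.76, adjusted p = 0.469), Insig1, which retains the SREBP complex in the membrane (0.64, adjusted p = 0.346), and Apoe, a lipoprotein component (0.67, adjusted p = 0.346). G6pc, the glucose-6-phosphatase of liver and kidney, had the smallest p among the fasting genes, with 0.182, 0.639 and 0.197 CPM in WT and 0, 0 and 0.0107 in heterozygous muscle.

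In kidney the members differed by log2 fold changes of 0.08 for Acaca to 0.31 for Scd1, all positive and all with overlapping groups. Scd1 was at 900, 1489 and 1175 CPM in WT and at 1494, 1472 and 1466 in heterozygous libraries. Fasn and Acaca were lowest in WT 3, at 84.5 and 21.4 CPM, and without WT 3 their log2 fold changes were -0.03 and -0.10, while without heterozygous 3 they were -0.10 and -0.06. Kidney WT 3 also had the lowest summed adipocyte markers, 82.4 CPM against 241 to 674 in the other 5, and the part of this in the 2 genes was not tested. Hmgcs1 was at 398, 496 and 339 CPM in WT against 407, 487 and 417, and Srebf1 at 52.8, 46.4 and 52.0 against 46.8, 61.0 and 57.9. Of the 73 pathway genes tested in kidney, 0 were called by edgeR, 10 had an unadjusted p under 0.05 (9 of them higher) and 3 were called by DESeq2, which called 1.01% of all genes there. The cholesterol list had 17 of 20 genes higher with a median of 0.17, where 50.1% of all genes were higher and their median was 0.0002. The list was not tested as a set. Its smallest p was that of Dhcr7, a late enzyme of the pathway (log2 fold change 0.42, SE 0.11, adjusted p = 0.450).

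In liver, log2 fold changes were negative for the fatty acid branch, -0.66 for Scd1 (SE 0.53), -0.30 for Srebf1 (SE 0.19), -0.29 for Fasn (SE 0.60) and -0.22 for Acaca (SE 0.28), and near 0 for Hmgcs1 (0.01), Srebf2 (0.04) and Sqle (0.10). All groups overlapped, and Fasn and Scd1 had the widest spread of the members between libraries of a genotype. Leaving out 1 library moved both: Fasn ranged from -1.27 without heterozygous 3 to 0.28 without WT 3, and Scd1 from -1.38 to -0.24 without the same libraries. The 5 neuron markers tested were all lower in heterozygous liver, with a median log2 fold change of -1.60. Of these, 1 did not overlap and 0 were called, and their summed level stood out in WT 3 alone, as given above. All 5 tested markers of oligodendrocytes, B cells, T cells and macrophages were lower too, while 3 of 5 erythroid markers were higher. Of all genes in liver, 47.6% were higher. The part of these markers in the member differences was not tested. Of 72 pathway genes tested, 0 were called by edgeR, DESeq2 or limma-voom. An unadjusted p under 0.05 was reached by 4.56% of all genes there and by 2 of the pathway genes. These were Mid1ip1, a partner of Acaca (98.9, 57.4 and 117 CPM in WT, 47.8, 49.4 and 57.03 in heterozygous libraries, log2 fold change -0.83, adjusted p = 0.742), and Abcg8, a sterol exporter (log2 fold change -0.45, SE 0.17).

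Brain and spleen showed the smallest differences. In brain the 7 log2 fold changes lay between -0.04 for Scd1 and 0.08 for Srebf2, with SEs of 0.07 to 0.12, and Fasn was at 328, 356 and 348 CPM in WT against 338, 358 and 387. In spleen they lay between -0.16 for Scd1 and 0.22 for Sqle, with SEs of 0.12 to 0.22. Spleen Sqle was at 17.1, 17.6 and 23.0 CPM in WT and at 19.1, 21.9 and 26.1 in heterozygous libraries, and Scd1 at 346, 401 and 479 against 371, 298 and 428. Of the 70 pathway genes tested in each, 0 were called in brain or spleen by edgeR, DESeq2 or limma-voom. An unadjusted p under 0.05 was reached by 2 in brain and 0 in spleen, against 2.96% and 3.52% of all genes. The smallest p of the fatty acid list in brain was that of Acss2, which activates acetate, at 58.2, 60.9 and 58.5 CPM in WT and 66.3, 65.5 and 66.7 in heterozygous brain (log2 fold change 0.16, SE 0.06).

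Whether the genotype difference changed with tissue was tested over all 30 libraries. By edgeR's interaction test, which called 0.758% of all genes, 0 members passed, with adjusted p = 0.164 for Scd1, 0.461 for Fasn and at least 0.902 for the other 5, and 2 had an unadjusted p under 0.05, where 6.66% of all genes did. The call depends on liver libraries: without heterozygous liver 3, Scd1 (adjusted p = 0.012) and Fasn (0.0185) passed, and without WT liver 1, Scd1 passed (0.0371). Limma-voom called 0 members. These fits treat libraries of different tissues as independent, although the design draws all tissues from the same mice. A difference shared by the tissues was called for 0.194% of all genes and for 0 members, of which 1, Srebf2, had an unadjusted p under 0.05 (log2 fold change 0.12, SE 0.05, adjusted p = 0.765), where 5.91% of all genes did. Limma-voom called 0 members here too.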

How the data were processed

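Per the file headers, the authors deposited raw fragment counts per gene, 1 table per tissue, made with featureCounts 1.5.0-p3 over exons of Ensembl release 86 (GRCm38), with no option set for strand or multi-mapping, so that neither strand nor multi-mapping fragments were used. STAR, FastQC and DESeq2 are named in the submitters' processing notes, with no version. Counts of Srebf1 (3.11% of its exon length overlaps other genes) and of Scd1, which has close paralogs, can therefore lose or share fragments. Exon length, also deposited, gave CPM per kb.

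Members and lists were chosen with earlier results of these data known. Libraries were grouped by title. In R 4.3.3, edgeR 4.0.16 (filterByExpr, TMM, quasi-likelihood F-test) was fitted per tissue (6 libraries), over 15 WT libraries for tissue contrasts and over 30 for interaction and shared effects, with Benjamini-Hochberg adjustment over all genes. The SE is the absolute log2 fold change over the root of F. Liver correlations used log2 CPM with a prior count of 2 and all 720 permutations. Fits were tested on simulated data. Alternatives used DESeq2 1.42.0, limma 3.58.1 (voom), other scalings and filters, all 30 libraries, a replicate block and each library left out.

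Named genes are the members, the list gene of smallest p per list and tissue where none was called, and the 5 genes most like Hmgcs1 and Fasn. Not every list's gene is printed for every tissue. Values of some list genes are not reported here, though the list counts include them. Replicates of a group differed by 15.4 to 640 times sampling noise (chi-square per degree of freedom, 30 pairs), so none was merged. The design names 3 mice per genotype, and the labels do not say which library came from which mouse. Same-numbered WT and heterozygous libraries deviated together in brain (r of 0.207, 0.383 and 0.537) and kidney (0.209, 0.190 and 0.212), each above 0.1, the value set for pairing. This comes from the data, not from the labels. In brain, heterozygous 1 deviated with WT 2 (r = 0.216) about as much as with WT 1, so the pairing there is not settled. The main fits used no pairing.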

Additional observations from a re-analysis of the deposited data

How the results depend on the processing

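Counts of called members stayed at 0 in brain, kidney, liver and spleen under every alternative run. In muscle, DESeq2 called 3 members and 6 pathway genes, a filter of 1 count 2 and 3, and a fit of all 30 libraries 2 and 5. In kidney these fits called 3, 1 and 1 pathway genes. With the replicate block, 2 members (Fasn, adjusted p = 0.0205, and Scd1, 0.0290) and 6 pathway genes were called in muscle, where it called 0.735% of all genes, and 1 pathway gene in kidney, and the block changed no other count of calls in a tissue. Same-numbered libraries did not all pass r of 0.1 in liver and muscle (r down to 0.051 and 0.083), though all were positive there. In spleen r was -0.472, -0.227 and 0.475. The interaction test called 0 to 2 members with 1 library left out. Calls among the 70 tissue contrasts ran from 53 to 58. The median r of the 21 liver pairs, 0.0014, moved to 0.204 with total counts, 0.157 as deviations from genotype means, 0.152 after the replicate block, and -0.0166 to 0.328 with 1 library left out. Total counts reversed Srebf1 (1.24 for brain over muscle, 0.70 for kidney over muscle, -1.29 for muscle over spleen), Srebf2 (0.17 for kidney over liver), Acaca (-1.26) and Hmgcs1 (-0.64, both muscle over spleen). Heterozygous libraries reversed Scd1 (-0.25 for brain over muscle) and Fasn (-0.24 for kidney over muscle, 0.95 for muscle over spleen). The cause was not tested. In 490 refits of single members by genotype, 40 changed sign. None of these was called, and in none did both the main and the refitted value exceed the SE of the main fit. Groups of 3 libraries limit every test.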
